A study of Bos taurus with 4 samples.

Results

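The genes described here restrain cell growth or the life of messenger RNA: the AU-rich element binding proteins ZFP36, ZFP36L1 and ZFP36L2, the antiproliferative BTG and TOB proteins, and the transcription factors FOXO1 and FOXO3. They were chosen by symbol, with earlier results of these data known. Of the 10 symbols, 7 had a named probe set: ZFP36, ZFP36L1, ZFP36L2, BTG1, BTG3, TOB1 and TOB2. These had 12 probe sets among them, of 9155 named genes in all. BTG2, FOXO1 and FOXO3 were not analysed here, since no probe set carried their names in the table used. The values come from 4 Affymetrix arrays of sorted bovine gamma delta T cells from the blood of calves 301 and 303, labelled as 1 to 6 months old in the protocols and as neonatal in the design text. Cells of each calf were rested overnight and then exposed for 4 h to apple polyphenol (APP), an aqueous extract at 42.2 µg/ml, or to phosphate-buffered saline (PBS), the vehicle alone. Each treatment thus had 2 arrays, 1 from each animal, and both shared the sort to over 97% purity and the culture.

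ZFP36 family proteins bind AU-rich elements in the 3' untranslated regions of short-lived transcripts, many of them cytokine transcripts, and recruit the CCR4-NOT deadenylase, which shortens the poly(A) tail and starts decay. BTG and TOB proteins share an N-terminal domain that binds the catalytic CNOT7 and CNOT8 subunits of the same complex, and several of them hold back lymphocyte proliferation. FOXO factors drive genes of the resting state in T cells and are kept out of the nucleus after phosphorylation by AKT and SGK1.

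A value is a log2 ratio: the signal of a probe set on an array over that probe set's own median on the 4 arrays. A ratio of 0 is the median, a step of 1 is a 2-fold step, and the level of a transcript against another transcript cannot be read. A change is APP minus PBS within a calf, and values of a gene with several probe sets are averaged. "Rose" and "fell" are used for an adjusted p under 0.05 in limma's moderated test with the calf as a block, adjusted over all 9155 genes by the Benjamini-Hochberg method.

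With APP, 5 of the 7 measured members rose (ZFP36, ZFP36L1, BTG1, BTG3 and TOB2) and 2 fell (ZFP36L2 and TOB1). Among all 9155 genes 23% rose and 29.7% fell, so that a call by itself was common in these data. The members were chosen with earlier results known, so their counts beside the shares of all genes are no independent evidence. In each of the 7 members both calves changed in the same direction and the APP values did not overlap the PBS values, which was higher with APP for 36.6% and lower for 37.2% of all genes. The sizes were graded, from 1.24-fold for BTG1 to 4.06-fold for BTG3. BTG3 and ZFP36L1 rose at least 2-fold in both calves, as 3.5% of all genes did, while no member fell that far in both, as 6.29% of all genes did. ZFP36 (2.12-fold) and ZFP36L2 (1.69-fold) lay between these and BTG1, TOB1 and TOB2, which changed by 1.24- to 1.28-fold in the mean.

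**Figure D1:**
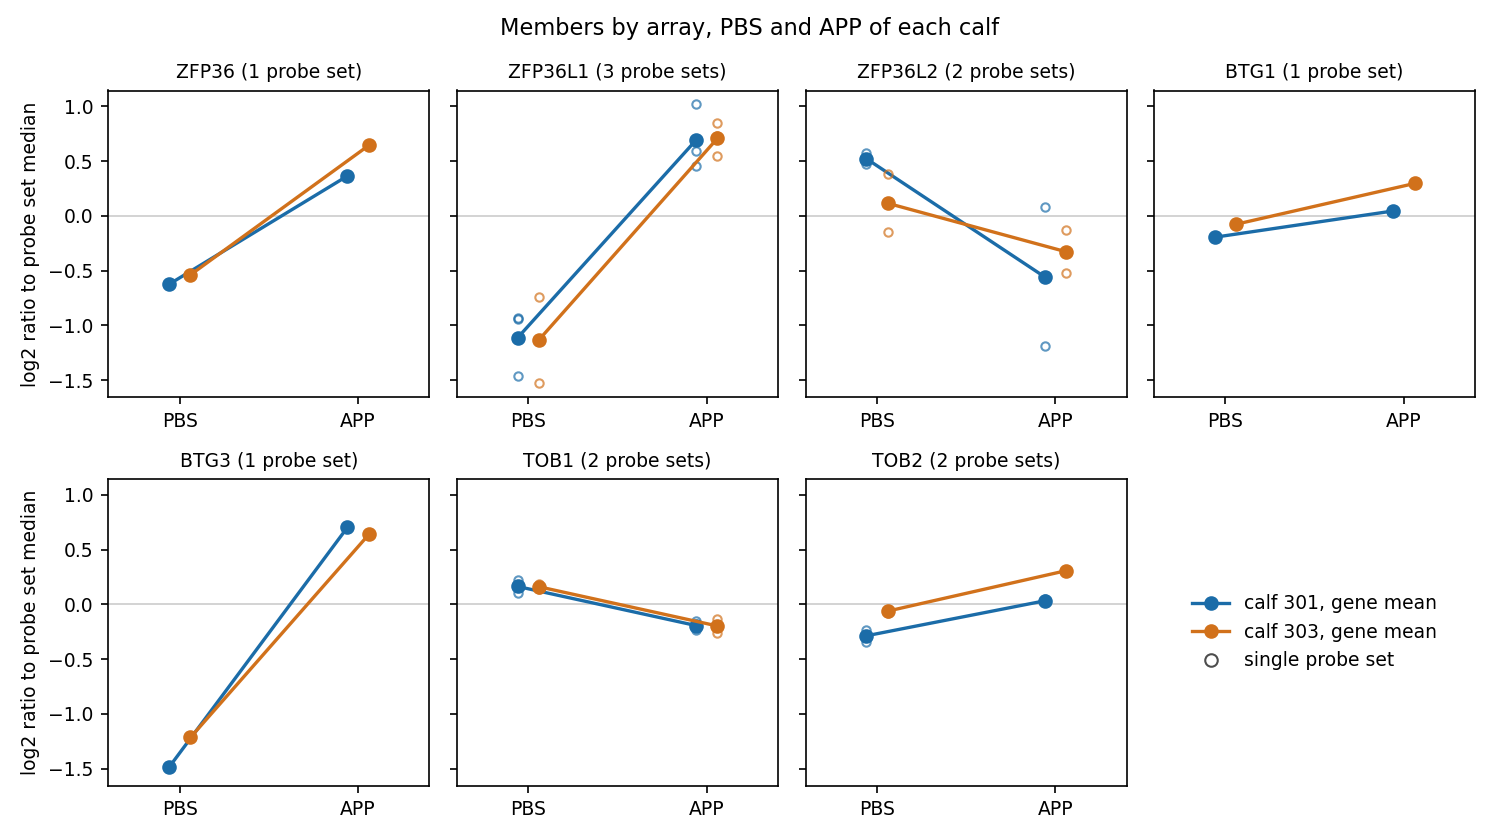
Log2 ratio to the probe set median (vertical axis) with PBS and APP for the 7 measured members, with calf 301 in blue and calf 303 in orange. Filled points joined by a line are gene means and open points single probe sets. BTG3 and ZFP36L1 climb from below -1.1 to above 0.6 in both calves, while ZFP36L2 and TOB1 slope down.

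Among the ZFP36 proteins, ZFP36L1 made the largest step. Its log2 ratio was -1.11 with PBS and 0.69 with APP in calf 301, and -1.13 with PBS and 0.71 with APP in calf 303. In this mean of its probe sets the calves lay almost on top of each other, and both APP arrays were far above both PBS arrays. The change was 1.82 ± 0.02 (SD, n = 2 calves), a 3.53-fold rise with limma's standard error of 0.095 and an adjusted p of 2.15e-05. Its 3 probe sets rose by 1.43, 2.01 and 2.01. They moved alike with treatment but not between animals. With PBS the last of them differed by -0.59 (calf 303 minus calf 301), where the other 2 differed by 0.21 and 0.33. These opposed differences nearly cancelled in the gene mean (-0.018).

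ZFP36, or tristetraprolin, is the member of the family known best for the decay of TNF and CSF2 transcripts. Its ratio was -0.62 with PBS and 0.37 with APP in calf 301, and -0.54 and 0.64 in calf 303. Both APP arrays were higher than both PBS arrays. ZFP36 rose 2.12-fold (log2 change 1.09 ± 0.14, SD, n = 2 calves, adjusted p = 0.00017, limma), by less than ZFP36L1 in each calf, with a gap of 0.81 in calf 301 and 0.66 in calf 303.

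ZFP36L2, which with ZFP36L1 is required for orderly thymocyte development, went the other way. Its ratio was 0.52 with PBS and -0.56 with APP in calf 301, and 0.12 with PBS and -0.33 with APP in calf 303. The APP arrays were the lower ones, and the change differed more between the calves than that of any other member. ZFP36L2 fell 1.69-fold (log2 change -0.76 ± 0.45, SD, n = 2 calves, adjusted p = 0.00558, limma). The fall rested on 1 of its 2 probe sets. The first fell (-1.67 in calf 301 and -0.91 in calf 303, with an adjusted p of 0.00246 over all probe sets in limma), whereas the other gave -0.49 and 0.02 (adjusted p = 0.258). The call for the gene was lost in unblocked fits without the PBS array of calf 301 (-0.56, adjusted p = 0.0753) or without its APP array (-0.65, adjusted p = 0.0715).

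The paralogs ZFP36L1 and ZFP36L2 therefore parted. The change of ZFP36L1 exceeded that of ZFP36L2 by 2.88 in calf 301 and by 2.28 in calf 303 on the log2 scale, and that of ZFP36 exceeded it by 2.07 and 1.62. Such a gap between genes of the same arrays does not move with a factor applied to a whole array.

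Of the BTG and TOB genes, BTG3 made the largest rise of all 7 members. BTG3 is an antiproliferative protein reported to bind the cell cycle factor E2F1. Its ratio was -1.49 with PBS and 0.70 with APP in calf 301, and -1.21 and 0.64 in calf 303. Both APP arrays stood well above both PBS arrays. The rise was 4.06-fold (log2 change 2.02 ± 0.24, SD, n = 2 calves, adjusted p = 2.79e-05, limma), 4.56-fold in calf 301 and 3.61-fold in calf 303, and was read from 1 probe set. The change of BTG3 ranked 88th among the rises of all genes, with ZFP36L1 at rank 121 and ZFP36 at rank 327.

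BTG1, which together with BTG2 keeps resting T cells quiescent through transcript deadenylation, moved little. Its ratio was -0.19 with PBS and 0.05 with APP in calf 301, and -0.08 and 0.30 in calf 303. The rise of 0.31 ± 0.09 (SD, n = 2 calves, adjusted p = 0.0352, limma) was 1.24-fold, and the nearest PBS and APP arrays were about as far apart as the PBS arrays of the calves. In the fit over probe sets, its single probe set did not pass (adjusted p = 0.069). BTG3 rose by more than BTG1 in both calves, by 1.95 and 1.48 on the log2 scale.

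TOB1 and TOB2 moved by small amounts in opposite directions. TOB1, described as a brake on T cell proliferation, had a ratio of 0.16 with PBS and -0.19 with APP in calf 301, and 0.16 and -0.20 in calf 303. The calves were nearly identical, and TOB1 fell by 0.36 in each (1.28-fold, adjusted p = 0.0172, limma). Its probe sets changed by -0.26 and -0.45. TOB2, its close relative, had a ratio of -0.29 with PBS and 0.03 with APP in calf 301, and -0.06 and 0.31 in calf 303. APP was higher within each calf, by 0.32 and 0.37, but the APP value of calf 301 was closer to the PBS value of calf 303 than to that of its own pair. TOB2 rose 1.27-fold (0.34 ± 0.04, SD, n = 2 calves, adjusted p = 0.0202, limma), with 0.30 and 0.39 for its probe sets. The change of TOB1 minus that of TOB2 was -0.68 in calf 301 and -0.73 in calf 303.

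**Figure D2:**
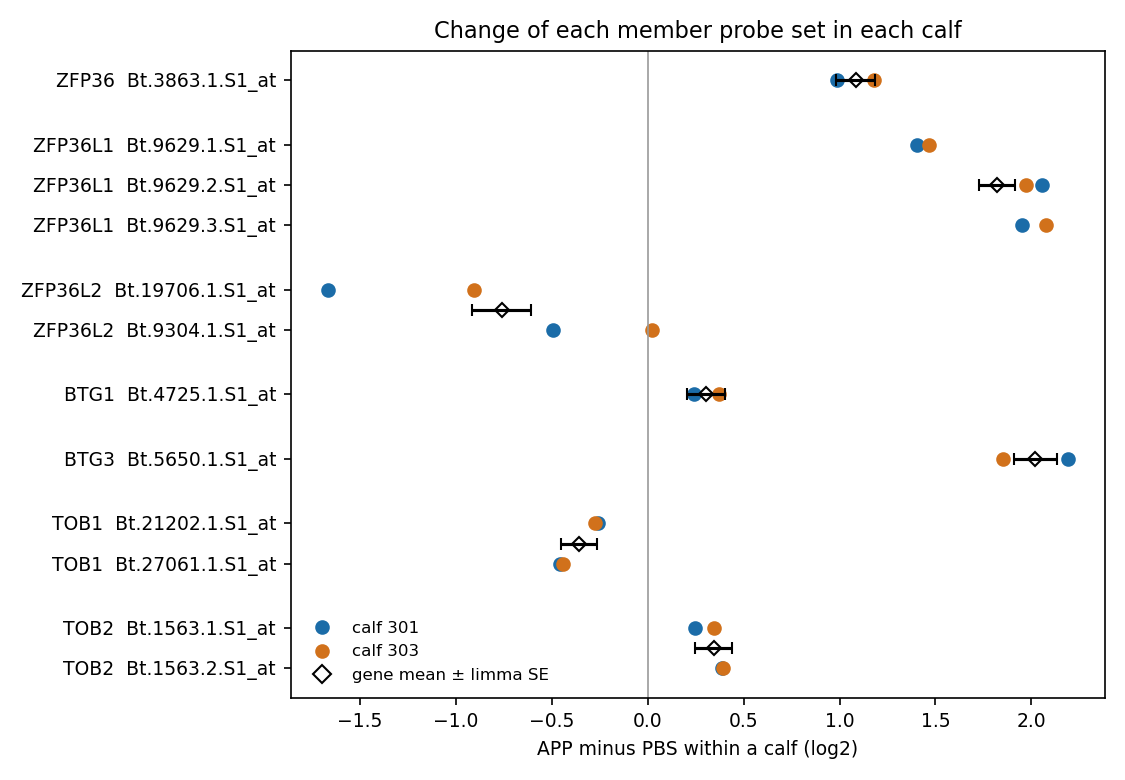
APP minus PBS on the log2 scale (horizontal axis) for each of the 12 member probe sets, in calf 301 (blue) and calf 303 (orange), with the gene mean and limma's standard error as a diamond and bar. The probe sets of ZFP36L1, TOB1 and TOB2 agree in direction, and those of ZFP36L2 stand apart at -1.29 and -0.24 in the mean of the calves.

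Taken by probe set, 6 of the 12 rose, 2 fell and 4 did not pass, beside 16.3% rises and 23.6% falls among all 24016 probe sets. The 4 were 1 each of ZFP36L2, BTG1, TOB1 and TOB2. Without the calf as a block, 3 members rose and 2 fell: BTG1 (adjusted p = 0.114) and TOB2 (adjusted p = 0.117) no longer passed. In unblocked fits that left out 1 array, ZFP36, ZFP36L1 and BTG3 passed each time (adjusted p at most 0.0152, limma). BTG1 (0.18 to 0.43), TOB1 (-0.359 to -0.355) and TOB2 (0.21 to 0.48) passed in none of the 4.

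The fit also gave a term for the calf. No member passed it (adjusted p of 0.251 or more, limma), beside 1.7% of all genes. With PBS, the calves differed least in TOB1 (-0.0029, calf 303 minus calf 301) and most in ZFP36L2 (-0.41). With APP, ZFP36 (0.28), TOB2 (0.28) and BTG1 (0.25) were higher in calf 303, and BTG3 was lower by 0.06.

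**Figure D3:**
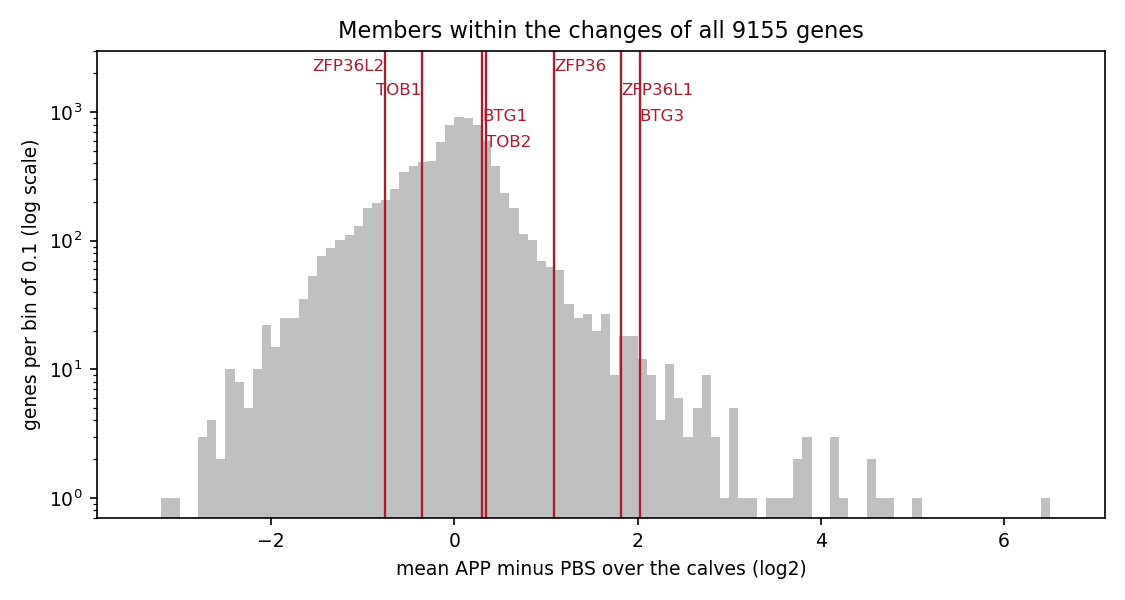
Mean log2 change with APP over the calves (horizontal axis) for all 9155 genes, as a histogram with a log vertical axis, with the 7 members as red lines. BTG3, ZFP36L1 and ZFP36 lie in the upper tail, BTG1 and TOB2 in the shoulder just above 0, and ZFP36L2 and TOB1 on the falling side.

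Among the scalings tried, BTG1 and TOB2 changed direction only when the arrays were scaled to the hybridization controls. Spiked bacterial control transcripts (bioB, bioC and bioD, 7 probe sets), added at hybridization in fixed amounts, read 1.71-fold higher with APP than with PBS in calf 301 and 1.90-fold higher in calf 303. When each array was scaled to them, the median change of all genes moved from 0.01 to -0.84, and every member moved down by the same amount. BTG3 (1.17) and ZFP36L1 (0.97) still rose, ZFP36L2 (-1.61) and TOB1 (-1.21) still fell, and ZFP36 stood at 0.23 and no longer passed. BTG1 (-0.55) and TOB2 (-0.51) turned to falls. On this scale limma estimated 1 spread for all genes (a standard error of 0.147, against a median of 0.099 as deposited), so that its calls and counts, here and below, rest on another moderation than those of the deposited scale and are not comparable with them in number. The order of the members and the gaps between them were as before by construction, since a factor applied to a whole array cannot change them. Whether the controls or the deposited scale come closer to transcript amounts per cell was not tested.

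**Figure D4:**
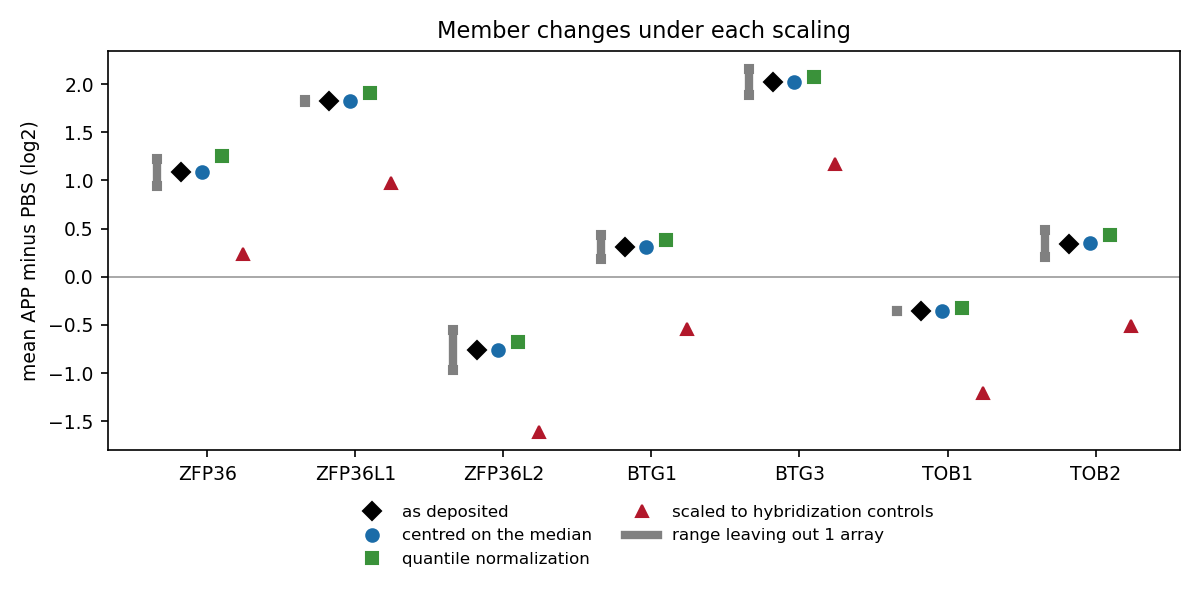
Mean log2 change with APP (vertical axis) of the 7 members as deposited (black), centred on the array median (blue), after quantile normalization (green) and scaled to the hybridization controls (red), with the range over fits that left out 1 array as a grey bar. The red points lie lower by one shared step, which takes BTG1 and TOB2 across 0.

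The partners, regulators and known or possible targets of these proteins were counted from lists of 219 symbols including the members, 152 of which were measured. Of 7 measured genes of the CCR4-NOT complex, 3 rose and 2 fell, with a median of 0.09 against 0.01 for all genes. CNOT6L, a catalytic nuclease subunit, rose (0.90 in the mean of the calves), and its paralog CNOT6 fell (-1.49). CNOT9 rose by 0.79, while its probe sets gave 0.02, 0.45 and 1.88. CNOT7, the subunit bound by BTG and TOB proteins, rose by 0.42, and CNOT10 fell by 0.40. The calls of CNOT7 and CNOT10 held in only 1 of the 4 fits without an array (highest adjusted p of 0.127 and 0.213), and CNOT10 was at -0.24 without the APP array of calf 303. Scaled to the hybridization controls, none of the complex rose and 5 fell, with CNOT6L at 0.05, CNOT9 at -0.07 and CNOT7 at -0.43.

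Of 12 other deadenylation, poly(A)-binding and decapping genes, 5 rose and 4 fell (median 0.30). The largest rise was that of NOCT, a circadian protein related to the deadenylases (4.52 in the mean), followed by LSM1 of the ring that assists decapping (0.91). The deadenylase genes PAN2 (-0.95) and PARN (-0.93) fell. Of 13 other mRNA-binding regulators, 6 rose and 2 fell (median 0.26). ZC3H12A, the endonuclease Regnase-1, which cuts stem-loops in cytokine transcripts, rose by 1.65 and HNRNPAB by 0.99. TIAL1 (-0.41) and TIA1 (-0.29), translational repressors that bind U-rich stretches, fell, but TIA1 passed in no fit without an array (adjusted p of 0.127 or more) and TIAL1 in only 1 of 4. The probe sets of TIA1 changed by -0.51 and -0.07. On the scale of the hybridization controls each of these lists had 1 rise, that of NOCT and that of ZC3H12A, and 9 falls, with LSM1 at 0.06 and HNRNPAB at 0.14.

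ZFP36 is held inactive when phosphorylated by the kinase MK2 downstream of p38. Of 8 genes for kinases and phosphatases of ZFP36 and TOB proteins, 2 rose and 4 fell (median -0.24). MAPK14, the gene of p38 alpha, fell by 1.44, with changes between -1.82 and -1.14 over its 3 probe sets. Of the kinases that activate p38, MAP2K6 fell (-3.36 in calf 301 and -3.03 in calf 303) and MAP2K3 rose (2.24 and 2.51). PPP2CA, a catalytic subunit of phosphatase 2A, rose by 0.33 but passed in no fit without an array (adjusted p of 0.0762 or more) and was at -0.52 on the scale of the hybridization controls, where 1 of the 8 rose and 7 fell.

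Which transcripts are substrates of the ZFP36 family in these cells was not tested. Transcripts described as carrying AU-rich elements rose in 21 of 29 cases, with none falling (median 1.85, beside 23% rises among all genes). Several of them were already known to rise in these arrays when the list was drawn up, so the count is no independent evidence of a direction. The largest were CSF2 (6.41), PLAU (5.04), CDKN1A (4.69), which is also on the quiescence list, and IL2 (4.16), with TNF at 2.63. IL2 rose by 3.16 in calf 301 and 5.17 in calf 303, and its limma standard error of 0.395 was the highest of all genes. CXCL8 rose by 2.19 in the mean (2.65-fold in calf 301 and 7.85-fold in calf 303). Its log2 change was 1.26 without the APP array of calf 303 and at 3.11 without that of calf 301, and its call was lost without either PBS array (adjusted p = 0.0866 and 0.0675). IFNG, which is also on the list, was at -0.03 (adjusted p = 0.838, limma). PTGS2 changed by 0.25 in the gene mean (adjusted p = 0.0691, limma), but its 3 probe sets gave 1.02, -0.08 and -0.20. The first of these rose (adjusted p = 0.00089 over all probe sets, limma), and the other 2 did not pass. PTGS2 passed after quantile normalization (0.30, adjusted p = 0.0462). Scaled to the hybridization controls, 19 rose and 9 fell, with IFNG at -0.88 and PTGS2 at -0.61. ZFP36 and ZFP36L1 thus rose on the same arrays as most of these transcripts, and decay rates were not measured.

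FOXO1 and FOXO3 themselves could not be read, but FOXO4, a further member of the family, fell by 0.64 (adjusted p = 0.00164, limma), by 0.56 in calf 301 and 0.72 in calf 303. Of 14 measured genes described as FOXO targets, 10 fell, none rose and 4 did not pass (median -0.52, beside 29.7% falls among all genes). The fall of S1PR1 (-1.91) and those of CAT and SOD2 were known when the list was drawn up, so the count is no independent evidence of a direction. CITED2, a transcriptional coregulator, fell the most (-2.46 in calf 301 and -2.44 in calf 303). PIK3IP1, an inhibitor of phosphoinositide 3-kinase, fell by 1.23, with -1.59 and -0.88 for its probe sets. In fits without 1 array, 6 or 7 of the 14 fell, with 6 without the PBS array of either calf. Scaled to the hybridization controls all 14 fell, as did most genes.

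The list of regulators of FOXO proteins, which also holds FOXO4 itself, moved both ways, with 7 of 16 up and 5 down (median 0.14). FOXO4 is among the 5 that fell. SGK1, one of the kinases that phosphorylate FOXO proteins, rose by 1.82 in calf 301 and 1.19 in calf 303. Its probe sets differed, with 2.28, 2.06 and 0.18. AKT1 fell by 0.28 in the gene mean (adjusted p = 0.0423, limma), but neither of its probe sets passed (adjusted p = 0.0535 and 0.14, limma). AKT1 also passed in no fit that left out an array. AKT2 rose by 0.54, with 0.73, 0.71 and 0.18 for its probe sets, the last of which did not pass. AKT2 did not pass without the PBS array of calf 301 (adjusted p = 0.0822) and was at -0.31 on the scale of the hybridization controls. PIK3R1, the regulatory subunit of phosphoinositide 3-kinase, fell by 2.41 and XPO1, the nuclear exporter, by 0.78. YWHAG, of the 14-3-3 proteins that retain FOXO and ZFP36 proteins in the cytoplasm, rose by 0.74. XPO1 and YWHAG each passed in 2 of the 4 fits without an array, and did not without APP of calf 301 (adjusted p = 0.0546 and 0.0622) or PBS of calf 303 (adjusted p = 0.109 and 0.081). On the scale of the hybridization controls YWHAG was at -0.11, and 1 of the 16 rose and 12 fell.

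Among 12 other quiescence and antiproliferative genes, 4 rose and 4 fell (median 0.11). RBL2, which is among these falls, is also counted among the FOXO targets that fell. Beside the cyclin-dependent kinase inhibitor gene CDKN1A, the transcriptional repressor gene GFI1 rose by 2.51, and PRMT1, a methyltransferase that binds BTG proteins, by 0.83 (1.49 and 0.17 for its probe sets), or -0.02 when scaled to the hybridization controls. PDCD4, an inhibitor of translation, fell by 1.04 and RBL2, of the retinoblastoma family, by 0.98, with changes from -1.41 to -0.35 over its 3 probe sets. Scaled to the hybridization controls, 2 of the 12 rose and 8 fell.

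**Figure D5:**
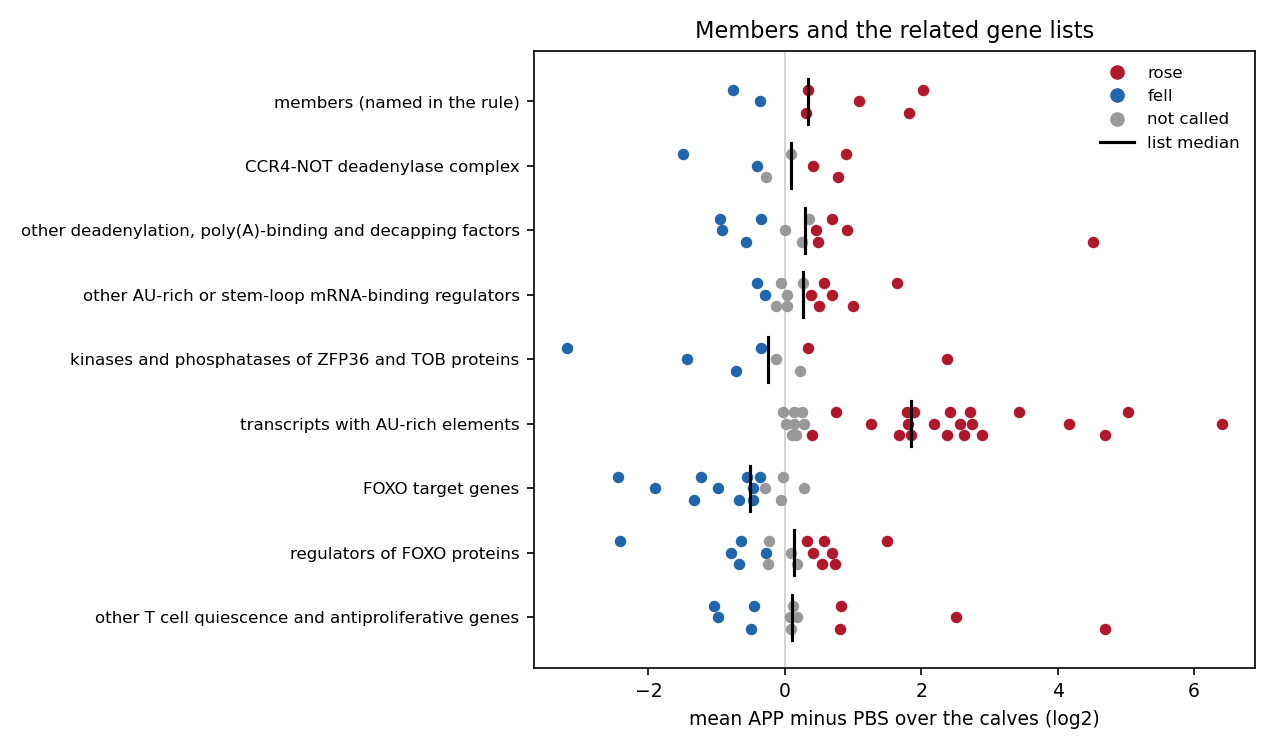
Mean log2 change with APP (horizontal axis) of each measured gene in the members and 8 related lists, in red where it rose, blue where it fell and grey where it did not pass, with the list median as a black bar. Transcripts with AU-rich elements reach from -0.03 to 6.41 with a median of 1.85, FOXO targets have a median of -0.52, and the other lists spread around 0.

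Over the 4 arrays, the genes closest in pattern to BTG3, by Euclidean distance between mean-centred log2 ratios, were DPH3 (0.11), SLAMF1 (0.12) and RASGEF1B (0.13). Those closest to ZFP36L2 were CPNE7 (0.02), CASP9 (0.06) and HTATIP2 (0.12). They were matched to the mean of its 2 probe sets, which differed (-1.29 and -0.24), and not to either alone. With 4 arrays many genes share such a pattern.

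Whether the cells were what the labels name could not be checked from levels, which these ratios do not hold. Of 9 measured gamma delta T cell markers, 2 rose and 5 fell. Scaled to the hybridization controls, none of them rose, 8 fell and 1 did not pass (median -1.32). Of 9 monocyte and dendritic cell markers, 3 rose and none fell (CD68 by 2.31, CD14 and FCGR1A by 0.46 each), and 6 did not pass (list median 0.15). The mean log2 ratio of the 9 was -0.23 and -0.20 with PBS and 0.13 and 0.20 with APP, with CD68 the farthest from the rest. Scaled to the hybridization controls, CD68 rose (1.45) and the other 8 fell, CD14 and FCGR1A by 0.39 each, with a median of -0.70. Of 4 B cell markers, CD79A and MS4A1 fell. Of 4 neutrophil markers 1 rose, and of 3 NK cell markers 1 rose. On the scale of the hybridization controls all 4 B cell markers, 3 of the 4 neutrophil markers and all 3 NK cell markers fell, and none rose. CD8A rose and CD8B fell among 3 alpha beta T cell markers, and CD4 did not pass. CD8A and CD8B differed more between the calves than with APP. With PBS, CD8A was at -1.69 in calf 301 and 0.22 in calf 303, and CD8B at -1.06 and 1.24. With APP, CD8A was at -0.29 and 0.98, and CD8B at -1.70 and 0.59. CD4 was at -0.03 and -0.18 with PBS. Scaled to the hybridization controls, CD8A did not pass (0.23) and CD8B fell (-1.49). None of 4 erythroid and platelet markers passed as deposited, and all 4 fell when scaled to the hybridization controls. ZFP36 family genes are also expressed in myeloid cells, and the part of such cells in the members' changes was not tested. In bulk samples, fewer cells of a type and less RNA per cell cannot be told apart.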

How the data were processed

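Expression was measured on 4 Affymetrix arrays, PBS and APP for each of 2 calves, from 15 µg of total RNA each, and samples were grouped from their titles. The authors summarised probes with RMA, per the submitters' processing notes; no source used here gives its version or options, or any scan date, so treatment and a possible array batch cannot be told apart. The deposited values are linear ratios (0.0264 to 6.814), a unit found from the values: the mean of the 2 middle ratios lay between 0.982 and 1.001 for every one of 24128 probe sets. Ratios were log2 transformed and used as deposited. Levels are lost, so no filter on low values was possible. All 112 control probe sets were left out and 24016 were tested. Names came from a platform annotation table updated through RefSeq (ARS-UCD2.0, names only): 13292 probe sets had 1 gene, 86 several and 10638 none, and 13263 matched by identifier. Symbols were matched exactly.

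Tests used limma 3.58.1 in R 4.3.3 (lmFit, eBayes, two-sided, 1 residual degree of freedom, prior degrees of freedom 5.86 for genes and 5.19 for probe sets) with the calf as a block, since both treatments came from the same animals. The difference between the calves correlated between PBS and APP (r = 0.514 across probe sets, which are not independent). Standard errors ran from 0.095 to 0.395 over genes (median 0.099), and the number of arrays limits the precision. An exact permutation test of 2 arrays against 2 cannot go below p = 0.33 and was not made. The fit was tested on simulated data. The members and lists were chosen with earlier results of these data known. The genes named were all members, up to 2 rises and 2 falls per list that were largest past the threshold and alike in direction in both calves, the 3 nearest in pattern to the members with the largest rise and fall, and a set named in any case, of which KLF2, IL7R, BCL2L11, CDKN1B, TXNIP, CNOT8 and 1 more were not analysed here. FOXO4, CAT, SOD2 and the markers named singly were chosen after their values were seen. Alternatives were no block, 3 other scalings, other probe set choices, a robust prior and each array left out.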

Additional observations from a re-analysis of the deposited data

How the results depend on the processing

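With arrays centred on the median, with probe sets limited to those without a cross-hybridization suffix and with a robust prior, each of the 7 members kept its direction and side of the threshold, and counts over lists and all genes moved by less than 1.5 times (10 to 11 falls of FOXO targets, 2041 to 2121 rises of all genes). Quantile normalization did so for the members, while TIA1 (-0.25) and AKT1 (-0.25) no longer passed and PTGS2 (0.30) did. Without the replicate block, BTG1 (0.31) and TOB2 (0.34) no longer passed, 3 members rose, and 1399 of all genes rose and 2161 fell, against 2104 and 2717 with it. CNOT10, TIA1 and AKT1 no longer passed either, and no other member's call changed. Scaled to the hybridization controls, ZFP36 (0.23) no longer passed, BTG1 (-0.55) and TOB2 (-0.51) reversed, 2 members rose and 4 fell, 7 member probe sets fell, and of all genes 298 rose and 8224 fell, which takes rises from 43.6% to 3.5% of calls. These counts come from a differently moderated fit, with 1 spread for all genes, and are not comparable in size with the others. Reversed with it were CNOT7 (-0.43), CNOT9 (-0.067), PPP2CA (-0.52), YWHAG (-0.11), PTGS2 (-0.61), AKT2 (-0.31) and PRMT1 (-0.024), and 1 shared shift per array accounts for these by construction. In unblocked fits without 1 array, changes ran from -0.96 to -0.56 for ZFP36L2, 0.18 to 0.43 for BTG1, -0.359 to -0.355 for TOB1 and 0.21 to 0.48 for TOB2. In these fits 3 members rose, 0 to 1 fell, 1 member probe set fell, 745 to 1292 genes rose, 1305 to 2012 fell and 6 to 7 FOXO targets fell. These fits have fewer arrays and no block. IFNG, which passed neither way, ran from -0.057 to 0.0058. Signal over background is unknown here, and a change near background is compressed.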
